A study of Homo sapiens with 6 samples.

Results

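The genes of the TNF superfamily, the signaling proteins related to tumor necrosis factor (TNF) and the receptors that bind them, were followed in RH30 cells with and without the IκBα super repressor (SR). RH30 is an established line that was derived from a human alveolar rhabdomyosarcoma, and SR is a form of IκBα that is not degraded and therefore holds classical NF-κB in the cytoplasm. Of 39 listed genes, 18 ligands and 21 receptors, 34 were represented by an array feature that carries their symbol alone, which left 16 ligands and 18 receptors out of 22411 genes measured. TNFSF12, TNFRSF25, TNFRSF10C and TNFRSF1B share their feature with another gene and were not analysed here, and neither was CD40LG. Total RNA of RH30 vector cells (3 arrays) and RH30 SR cells (3 arrays) was hybridized to the Affymetrix Human Transcriptome Array, with 1 array per sample. All cells were grown in DMEM with fetal bovine serum, and the labels name infection with SR or with vector as the only treatment. The methods describe stable lines made with the retroviral plasmid pBabe-puro, and whether each line was a clone or a pool is not given in the sources used here.

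Ligands of this superfamily are mostly membrane proteins that act as trimers, and many can be shed as soluble cytokines. Their receptors fall into those with a cytoplasmic death domain, which recruit adaptors such as FADD and TRADD, those that bind TRAF adaptors directly, and decoys that bind ligand without passing on the full signal. NF-κB lies downstream of most of these receptors, and it also activates transcription of several ligands, receptors and feedback proteins of the pathway.

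The values are log2 intensities after RMA, the authors' background correction, normalization and probe summary, so a difference of 1 is a factor of 2. NFKBIA, the gene that the SR transgene carries, was 11.62 ± 0.04 (SD, n = 3) in vector cells and 13.62 ± 0.10 (SD, n = 3) in SR cells, higher in the cells labelled SR. This feature does not separate the transgene from the cell's own gene. The array medians lay between 4.34 and 4.40. The 9 muscle and rhabdomyosarcoma marker genes, among them MYOD1, MYOG, DES and PAX3, were listed at 6.39 or more on every array, at or above the median gene in each case. The 12 measured leukocyte markers and the 4 endothelial markers had means below the median gene, with PTPRC, the pan-leukocyte antigen CD45, listed at 3.56 on all 6 arrays. The summed level of the leukocyte markers was 48.29 to 48.60 in the vector arrays and 47.89 to 48.30 in the SR arrays, and 1 of them, ITGAM, had a log2 fold change of -0.24 that passed the test. The 4 endothelial markers summed to 15.62 to 15.69 in the vector arrays and 15.36 to 15.47 in the SR arrays, with PECAM1 lower (-0.26), and none of the 4 epithelial markers passed the test. At or above the median gene 34.2% of all genes passed the test in either direction. Of the 9 rhabdomyosarcoma markers 5 were higher, with DES at 1.0 the highest, and MYOG (-1.17) and MYCN (-0.85) were lower. The part of these differences in the results on the TNF family was not tested. The labels number the replicates and do not say whether they were separate cultures, so the p-values reflect how much these arrays varied, and that variation could be technical only.

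In the comparison of SR with vector cells, 4 members were higher, 3 were lower and 27 did not pass the test at an adjusted p under 0.05 in limma. The higher genes were EDA2R, TNFRSF19, NGFR and TNFRSF21, and the lower genes were TNFRSF9, TNFRSF1A and FAS. All 7 encode receptors, and none of the 16 measured ligands passed the test. The share of members called, 20.6%, was close to the 18.3% of all 22411 genes that were called, of which 9.76% were higher and 8.58% lower, so the count of calls over all members is not a result about this family. Calls were more frequent among brighter genes, with 34.2% of genes at or above the median gene (5.13) called and 2.5% of the genes below it. Of the members, 27 had a mean below the median gene, including all 16 ligands, and 7 had a mean at or above it. Of those 7 members 5 were called, and of the 27 below the median gene 2 were called, FAS and EDA2R. In TNFRSF9 that mean rests on the vector arrays alone. The median log2 fold change over the members was -0.0018, and over all genes it was 0.00.

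**Figure D1:**
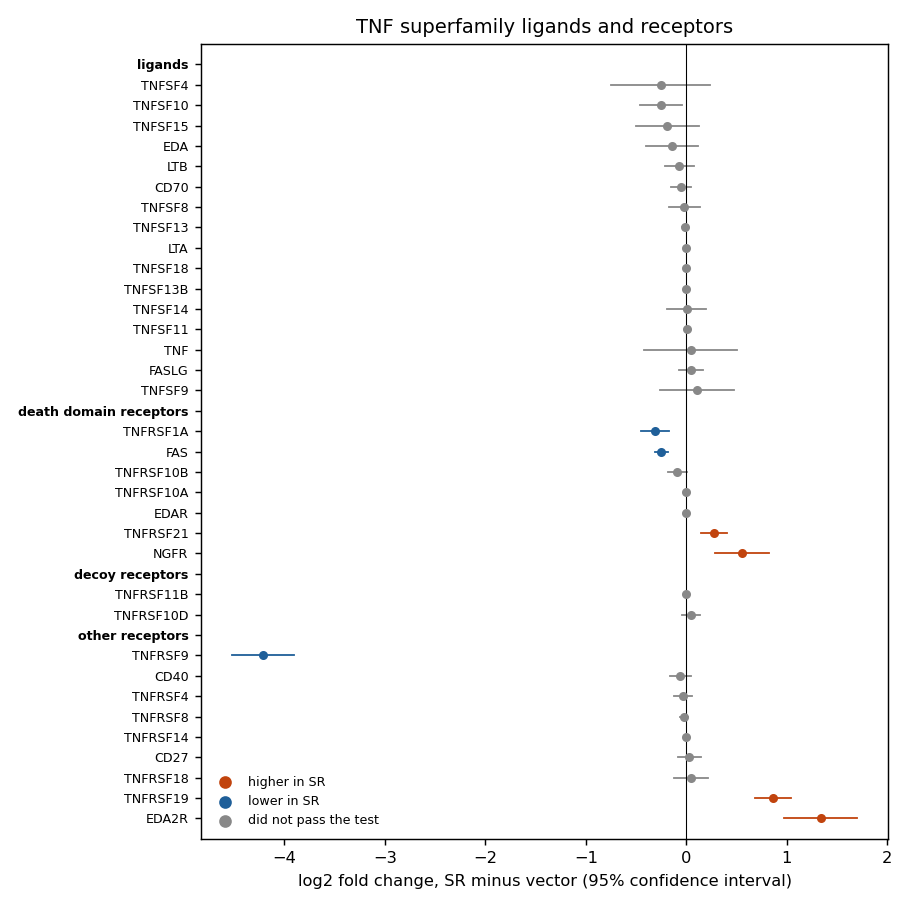
Log2 fold change, SR minus vector, of the 34 measured TNF superfamily genes by role (points), with the 95% confidence interval from limma (lines, not adjusted for multiple tests, n = 3 arrays per group). TNFRSF9 lies at -4.21 and EDA2R at 1.34, while the ligands lie between -0.26 and 0.11.

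TNFRSF9 encodes 4-1BB (CD137), a receptor best known as a costimulator on activated T cells and known as an NF-κB target. It showed the widest difference among the measured members. Its deposited value was 8.21, 8.17 and 7.88 on the vector arrays against 3.76, 3.89 and 3.98 on the SR arrays. Every vector array lay far above every SR array, and the SR values lay below the median feature of the arrays (4.37). The log2 fold change was -4.21 (standard error, SE, 0.12, 95% confidence interval -4.52 to -3.91, limma adjusted p = 1.12e-04) on the deposited scale, and the interval covers the spread between arrays only. The SR values are not shown to be above background, so no fold is given. In RNA from whole cell populations, fewer cells with a transcript and less of it per cell cannot be told apart. No detection calls were used here, and another background correction was not tried. The call held in all 17 alternatives, with a log2 fold change between -4.32 and -4.15. TNFSF9, which encodes the 4-1BB ligand, was listed at 3.98, 3.98 and 3.55 on the vector arrays against 3.99, 3.97 and 3.88 on the SR arrays, so that the groups overlapped. Its log2 fold change was 0.11, with a 95% confidence interval from -0.26 to 0.48.

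The RefSeq promoter window of TNFRSF9 is shown because this gene had the widest difference and its window holds a match to the κB consensus, the binding motif of NF-κB. The 250 bases before the annotated start (GRCh38.p14, chr1:7940840-7941089, - strand, printed 5′ to 3′) are given with the match in capitals, a run of 11 bases in which overlapping matches were joined, beginning 74 bases before the start.
TNFRSF9: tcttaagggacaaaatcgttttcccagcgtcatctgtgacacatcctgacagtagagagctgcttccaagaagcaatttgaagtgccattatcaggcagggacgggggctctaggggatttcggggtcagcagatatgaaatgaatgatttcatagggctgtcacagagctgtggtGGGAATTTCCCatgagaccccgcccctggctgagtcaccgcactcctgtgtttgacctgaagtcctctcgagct

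**Figure D2:**
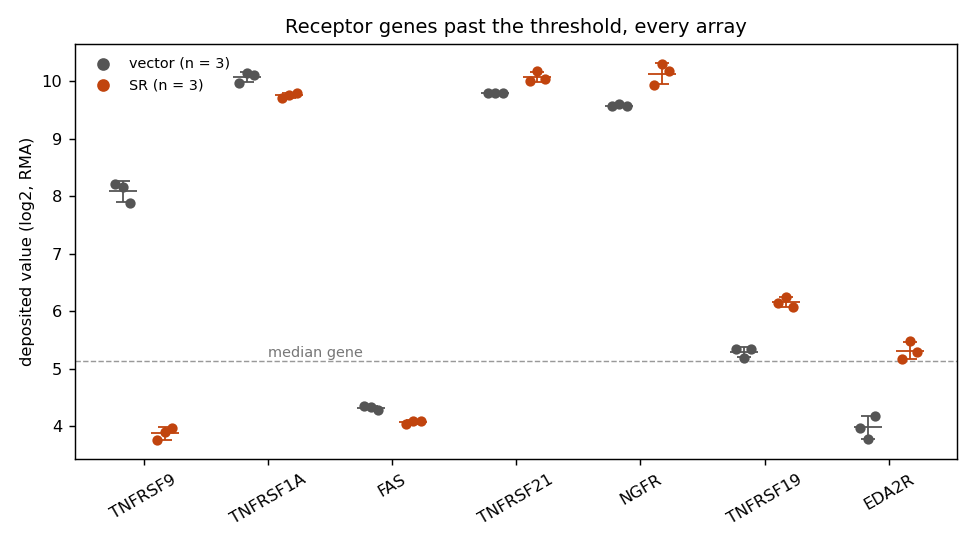
Deposited log2 value of the 7 receptor genes past the threshold on each of the 3 vector and 3 SR arrays (points), with the mean and SD of each group (bars) and the median gene at 5.13 (dashed line). The groups do not overlap for any of the 7 genes, TNFRSF9 drops from 8.09 to 3.87 on average, and FAS lies below the median gene in both groups.

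Among the receptors with a death domain, 2 were lower, 2 higher and 3 missed the threshold, so 57.1% of the 7 were called. Over all genes 18.3% were called, and 34.2% of those at or above the median gene. With 7 receptors this share is not read as a result about the class. TNFRSF1A encodes TNFR1, the main receptor through which most cells respond to TNF. Its value was 9.98, 10.15 and 10.11 on the vector arrays against 9.72, 9.77 and 9.80 on the SR arrays, without overlap. The log2 fold change was -0.32 (SE 0.05, limma adjusted p = 0.019), or 1.24 times as high in vector cells. FAS encodes the receptor for Fas ligand, a classical inducer of apoptosis. It was listed at 4.35, 4.34 and 4.29 on the vector arrays against 4.04, 4.10 and 4.10 on the SR arrays, again without overlap. The log2 fold change was -0.25 (SE 0.03, limma adjusted p = 0.0039) on the deposited scale. All FAS values in both groups lie below the median feature (4.37) and are not shown to be above background, so no fold is given. NGFR encodes the p75 neurotrophin receptor, which binds nerve growth factor and related neurotrophins instead of a TNF ligand. Its value was 9.57, 9.60 and 9.57 on the vector arrays against 9.93, 10.30 and 10.18 on the SR arrays, so that the SR arrays were higher and also more spread. The log2 fold change was 0.56 (SE 0.10, limma adjusted p = 0.023), or 1.47 times as high in SR cells. TNFRSF21, which encodes death receptor 6, was listed at 9.80 on all 3 vector arrays and at 10.01, 10.18 and 10.05 on the SR arrays. Its log2 fold change was 0.27 (SE 0.05, limma adjusted p = 0.020), and since the vector values were identical its error comes from the SR arrays and the variance that limma borrows from all genes.

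The calls of TNFRSF1A, NGFR and TNFRSF21 depended on which arrays were included, although their directions did not change. The call of TNFRSF1A was lost without vector replicate 2 (adjusted p = 0.053), vector replicate 3 (0.071), SR replicate 1 (0.072), SR replicate 2 (0.075) and SR replicate 3 (0.057), all from limma. The call of NGFR was lost without vector replicate 1 (adjusted p = 0.084), vector replicate 2 (0.080), vector replicate 3 (0.083), SR replicate 2 (0.050, above the threshold before rounding) and SR replicate 3 (0.094), all from limma. That of TNFRSF21 was lost without vector replicate 1 (adjusted p = 0.075), vector replicate 2 (0.076), vector replicate 3 (0.073) and SR replicate 3 (0.064), all from limma. The call of FAS held without each of the 6 arrays in turn, at an adjusted p of at most 0.022 from limma.

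TNFRSF10B encodes DR5, a receptor for the death ligand TRAIL. It was 8.92, 8.94 and 8.94 on the vector arrays against 8.88, 8.89 and 8.77 on the SR arrays. The groups lay apart, but the log2 fold change of -0.09 (95% confidence interval -0.18 to 0.00) did not pass the test (limma adjusted p = 0.21). The arrays of the groups lay apart in 9 of the 34 members and in 29.6% of all genes. The other TRAIL death receptor gene, TNFRSF10A, was listed at 4.03 on all 6 arrays, and EDAR, a receptor for ectodysplasin, at 4.24 on all 6. Identical values on every array do not measure the absence of a change. Of the decoys, TNFRSF10D, a TRAIL receptor with a truncated death domain, had a log2 fold change of 0.05 (95% confidence interval -0.04 to 0.14), and TNFRSF11B, which encodes osteoprotegerin, the soluble decoy for RANK ligand, was listed at 3.74 on all 6 arrays.

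The highest fold changes of the family were in EDA2R and TNFRSF19. EDA2R encodes XEDAR, the receptor for the A2 form of ectodysplasin. It was listed at 3.97, 3.78 and 4.19 on the vector arrays against 5.18, 5.48 and 5.29 on the SR arrays, which places the vector values below the median gene and the SR values just above it. The log2 fold change was 1.34 (SE 0.14, limma adjusted p = 0.0039) on the deposited scale. The vector values lie below the median feature (4.37) and are not shown to be above background, so no fold is given. EDA, the gene for its ligand ectodysplasin, was listed at 3.48, 3.48 and 3.75 on the vector arrays against 3.32, 3.48 and 3.48 on the SR arrays, with a log2 fold change of -0.15 (95% confidence interval -0.40 to 0.11). TNFRSF19, which encodes TROY, a receptor known from neural and epithelial development, was 5.34, 5.19 and 5.34 on the vector arrays against 6.14, 6.25 and 6.08 on the SR arrays. All SR arrays were higher, with a log2 fold change of 0.86 (SE 0.07, limma adjusted p = 0.0018), or 1.82 times as high in SR cells. Without each array in turn both calls held, at an adjusted p of at most 0.024 for EDA2R and 0.013 for TNFRSF19 from limma. For each of the 7 called members the exact 2-sided permutation test gave p = 0.1, and with 3 arrays in each group no smaller p can be reached.

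The remaining receptors, which mostly bind TRAF adaptors and are known from lymphocytes, did not pass the test. TNFRSF4 (OX40), TNFRSF8 (CD30), TNFRSF18 (GITR), CD27 and CD40 had log2 fold changes between -0.06 and 0.05, and their confidence intervals together ran from -0.16 to 0.22. TNFRSF14, which encodes the herpesvirus entry mediator HVEM, was listed at 4.26 on all 6 arrays. CD40, the receptor through which T cells activate B cells and macrophages, was 4.12, 4.12 and 4.21 on the vector arrays against 4.04, 4.12 and 4.12 on the SR arrays.

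The 16 measured ligands were listed between 3.12 and 4.73 on all arrays, and their log2 fold changes lay between -0.26 and 0.11. TNF itself, the prototype of the family and an NF-κB target in immune cells, was 3.84, 3.86 and 3.99 on the vector arrays against 4.30, 3.82 and 3.70 on the SR arrays. The groups overlapped, with SR replicate 1 above and SR replicate 3 below all vector arrays, and the log2 fold change was 0.04 (95% confidence interval -0.42 to 0.51). TNFSF10, which encodes TRAIL, came closest to a call among the ligands. It was 3.80, 4.03 and 3.76 in the vector arrays and 3.62 on all 3 SR arrays, with a log2 fold change of -0.25 (limma adjusted p = 0.12). It passed the test only without vector replicate 2, its highest array, at a log2 fold change of -0.17 (limma adjusted p = 0.011). The widest interval belonged to TNFSF4, the gene for the ligand of OX40, which was 4.61, 4.30 and 4.22 on the vector arrays against 4.0, 4.44 and 3.92 on the SR arrays (log2 fold change -0.26, 95% confidence interval -0.75 to 0.24).

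The other ligand genes showed smaller differences or identical values. LTA and LTB encode the lymphotoxins, which share receptors with TNF or bind the lymphotoxin β receptor, and their log2 fold changes were -0.0041 and -0.07. TNF, LTA and LTB are represented by 8, 7 and 8 features, most of them on alternate contigs of the major histocompatibility region, and none of these features passed the test. For LTB the brightest feature lies on an alternate contig, and fold changes over its features ran from -0.07 to 0.02. TNFSF15, which encodes TL1A, had a log2 fold change of -0.19 with overlapping groups (95% confidence interval -0.50 to 0.12). CD70, the ligand of CD27, had -0.05, FASLG, which encodes Fas ligand, 0.05, and TNFSF8, the ligand of CD30, -0.02. TNFSF11 (RANK ligand), TNFSF13 (APRIL), TNFSF14 (LIGHT) and TNFSF18 (GITR ligand) had values between -0.01 and 0.01, and TNFSF13B, which encodes the B cell survival factor BAFF, was listed at 3.97 on all arrays. In 13 of the 34 members a group had the same value on all 3 of its arrays, and in 5 of these all 6 arrays did. In the receptor and ligand pairs that could be compared, a called receptor stood beside a ligand that was not called for TNFRSF9 with TNFSF9, FAS with FASLG, TNFRSF1A with TNF and LTA, and EDA2R with EDA. The values of these ligands all lay below the median feature (4.37) and are not shown to be above background. Of all genes below the median gene only 2.5% were called, so the pairs do not show that a ligand stayed unchanged.

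Another 49 genes downstream of and around these receptors were examined, of which 39 were measured. They include 8 further receptors and 5 shedding and soluble regulators, and all are called downstream genes below for short. In SR cells 13 of them were lower and 7 higher (51.3% called), whereas 19 missed the threshold. In this list 33 genes had a mean at or above the median gene, 19 of them called, while 34.2% of all such genes were called. The list was chosen with earlier results of these data known, and it holds genes known as NF-κB targets, such as TNFAIP3 and TRAF1. Neither its share of calls nor those of its parts are therefore read as a result about the pathway. The median log2 fold change of the list was -0.05. Beyond the listed members, TNFRSF12A, which encodes the TWEAK receptor Fn14, was listed at 13.82 to 14.03 on the vector arrays and at 14.23 to 14.52 on the SR arrays, with a log2 fold change of 0.42 that missed the threshold (limma adjusted p = 0.058) and passed it in 5 of 17 alternatives. RELT, another receptor of the family, was higher by 0.32, and LTBR, the lymphotoxin β receptor gene, had a log2 fold change of 0.17 (limma adjusted p = 0.34).

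Of 9 measured receptor adaptors, 3 were lower and 2 higher (55.6% called, beside 34.2% of all genes at or above the median gene). TRAF1, an adaptor that pairs with TRAF2 and is known as an NF-κB target, was 7.01, 6.98 and 6.99 on the vector arrays against 5.60, 5.69 and 5.63 on the SR arrays, a log2 fold change of -1.36 (SE 0.03, limma adjusted p = 5.84e-05). TRAF3, which holds the kinase NIK at a low level in resting cells, was 8.72, 8.76 and 8.77 on the vector arrays against 7.58, 7.84 and 7.83 on the SR arrays, a log2 fold change of -1.0 (SE 0.08, limma adjusted p = 0.0019). TANK, an inhibitor that binds TRAF proteins, was lower by 0.44 on the log2 scale. FADD, the adaptor that links death receptors to caspase 8, was 7.18, 7.63 and 7.47 on the vector arrays against 9.16, 9.38 and 9.29 on the SR arrays, the highest fold change of the list (1.85, SE 0.14, limma adjusted p = 0.0015). TRAF5 was higher by 0.41, and TRAF4, TRAF6, TRADD and EDARADD did not pass the test.

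The ubiquitin ligases and editors of the TNFR1 complex were lower in 4 of 9 measured genes and higher in 1. That is 55.6% called, beside 34.2% of all genes at or above the median gene. TNFAIP3 encodes A20, an editing enzyme that ends NF-κB signaling and is itself an NF-κB target. It was listed at 10.13 on all 3 vector arrays and at 6.91, 7.25 and 7.11 on the SR arrays, a log2 fold change of -3.04 (SE 0.09, limma adjusted p = 1.4e-04). Its partner TNIP1 (ABIN1) was 9.44, 9.55 and 9.46 on the vector arrays against 7.94, 8.0 and 8.0 on the SR arrays, a log2 fold change of -1.50. The deubiquitinase gene CYLD was lower by 0.49 and BIRC2, which encodes the ubiquitin ligase cIAP1, by 0.44, whereas RBCK1, a subunit of the linear ubiquitin ligase complex, was higher by 0.31.

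Among 6 measured kinases, MAP3K14, which encodes NIK, the kinase that starts the alternative NF-κB pathway, was 8.33, 8.50 and 8.64 on the vector arrays against 9.10, 9.16 and 9.16 on the SR arrays. Its log2 fold change was 0.65 (SE 0.09, limma adjusted p = 0.0086), in the opposite direction to TRAF3. MAP3K5 (ASK1) was higher by 0.30, and MAP3K7 (TAK1) and its partner TAB3 were lower by 0.11 and 0.16. That is 66.7% of the kinases called, 2 higher and 2 lower. Over all genes 34.2% were called at or above the median gene and 2.5% below it. Of 4 measured death effectors, BID, which carries the death signal to mitochondria, was lower by 0.92. MLKL, the effector of necroptosis, was lower by 0.35 and CASP10 by 0.25, while CASP8 had a log2 fold change of -0.02. CASP10 was listed at 3.86, 3.77 and 3.89 on the vector arrays against 3.62, 3.52 and 3.63 on the SR arrays. All CASP10 values in both groups lie below the median feature (4.37) and are not shown to be above background. The sheddases moved in opposite directions. ADAM10 was higher by 0.65, and ADAM17, the enzyme that releases soluble TNF and TNFR1, was lower by 0.69.

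Calls with small fold changes in this list depended on the arrays present. The call of RELT was lost without vector replicate 2 and without each SR array (adjusted p between 0.055 and 0.085), and that of TRAF5 without each SR array (0.063 to 0.069), all from limma. Those of RBCK1 were lost without every array except SR replicate 2 (adjusted p between 0.074 and 0.13), and those of MAP3K7 without every array except vector replicate 1 (0.053 to 0.093), all from limma. The call of TAB3 was lost without vector replicate 3 and each SR array (adjusted p between 0.085 and 0.096), and that of CASP10 without every array except vector replicate 2 (0.061 to 0.092), all from limma. The other 14 calls of the list held without each array in turn.

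**Figure D3:**
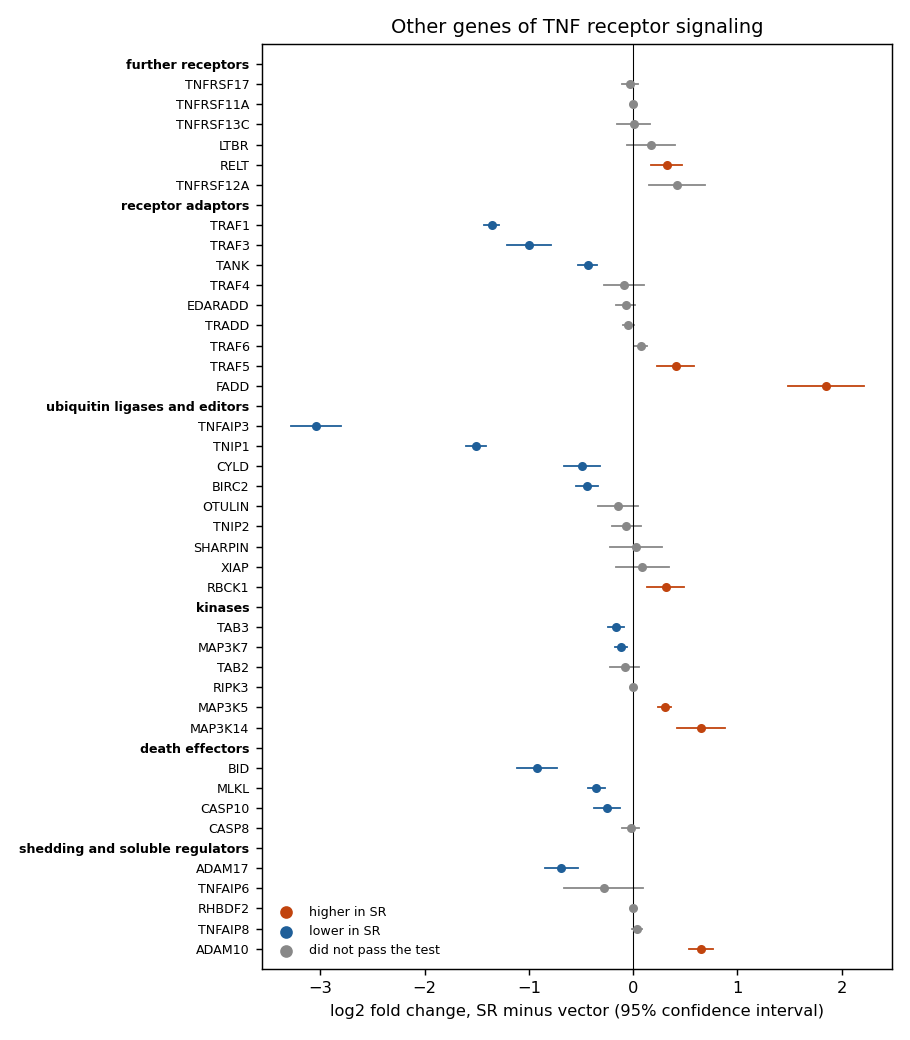
Log2 fold change, SR minus vector, of 39 measured genes around the TNF receptors by function (points), with the 95% confidence interval from limma (lines, not adjusted for multiple tests, n = 3 arrays per group). TNFAIP3 lies lowest at -3.04 and FADD highest at 1.85.

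Each called gene was also set beside the 20 nearest protein-coding genes of its chromosome with a mean at or above the median gene, 10 on each side (14 in all for BID and 13 for RBCK1), to see whether it moved with its stretch of chromosome. For the called members the medians of the neighbors were small. They were 0.00 for TNFRSF9, 0.02 for TNFRSF1A, 0.08 for FAS, 0.05 for TNFRSF21, -0.19 for NGFR, 0.00 for TNFRSF19 and -0.03 for EDA2R. TNFRSF9, TNFRSF19 and EDA2R lay beyond every neighbor in their own direction. TNFRSF21, with a log2 fold change of 0.27, lay within the quartiles of its neighbors (-0.03 to 0.31), of which 8 were higher and 1 was lower. For NGFR, 8 of the 20 neighbors were lower and 1 was higher, against its own 0.56.

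Several downstream genes sat among neighbors that moved. Around RELT on chromosome 11, 18 of 20 neighbors were higher with a median of 1.77, well above its own 0.32, and around FADD on the same chromosome 12 of 20 were higher. The sides of FADD differed: the nearest 3 genes on one side, PPFIA1 (1.89), CTTN (1.72) and DHCR7 (1.96), had log2 fold changes close to its own 1.85, while the 10 genes on the other side lay between -0.14 and 0.77. BIRC2, lower by 0.44, had neighbors with a median of 0.56, 13 of them higher. Around ADAM17 on chromosome 2 the median was -0.61 with 16 of 20 lower, around ADAM10 on chromosome 15 it was 0.49 with 16 higher, and around MLKL on chromosome 16 it was -0.44 with 14 lower. TRAF1 fell among neighbors of which 15 were higher and none lower (median 0.32). MAP3K14, higher by 0.65, had 8 lower and no higher neighbors (median -0.22). TNFAIP3, TNIP1 and TRAF3 had neighbor medians of 0.18, 0.00 and 0.01. TRAF5, RBCK1 and MAP3K5 lay within the quartiles of their neighbors, which had medians of 0.37, 0.42 and 0.20 with 10, 8 and 9 of them higher. TAB3, lower by 0.16, also lay within the quartiles of its neighbors (median -0.07), of which 6 were lower and 4 higher. The part of the chromosome stretch in the calls of FADD, ADAM10, ADAM17, MLKL, RELT, TRAF5, RBCK1, MAP3K5 and TAB3 was not tested.

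**Figure D4:**
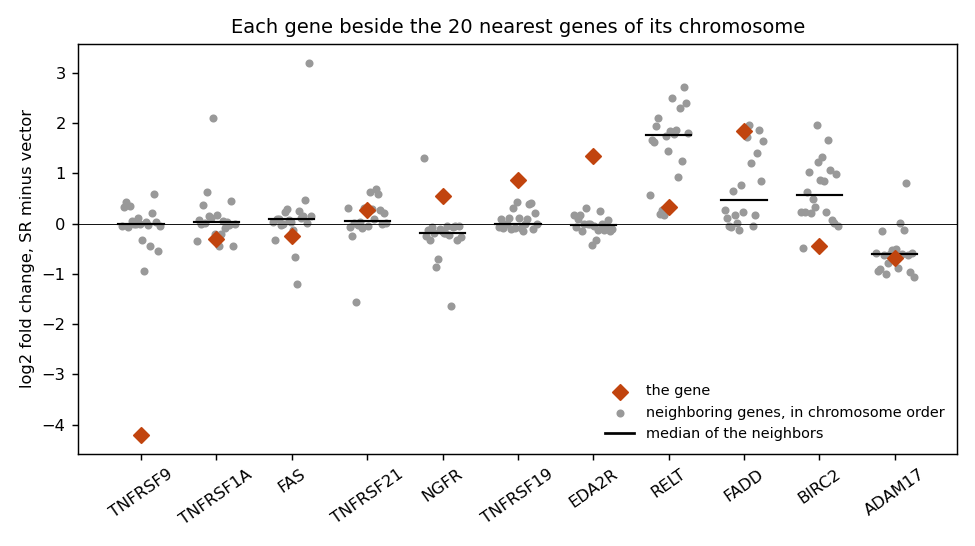
Log2 fold change, SR minus vector, of the 7 called members and of RELT, FADD, BIRC2 and ADAM17 (diamonds) beside the 20 nearest protein-coding genes of the chromosome (gray points in chromosome order, line at their median). TNFRSF9 and EDA2R stand apart from neighbors near 0, whereas ADAM17 lies close to the median of its neighbors, -0.61.

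The κB consensus, a motif of 10 letters, was searched on both strands in the RefSeq promoter windows, 250 bases before to 50 after each annotated start. Of the 34 measured members 23 had a window, and NGFR was among those without one. The motif was found in 9 of the 23 (39.1%), and in 13.3% of the 27305 genes of the promoter table. A gene counted if any of its windows matched. The table includes genes not measured here and was not matched to the members by number of windows, so the 2 shares are not strictly alike. By call it was found in 2 of 3 lower members, 1 of 3 higher members and 6 of 17 that did not pass the test, so a match did not go along with a lower level in every member. Among the downstream genes it was found in 6 of 12 that were lower, 1 of 7 that were higher and 1 of 13 that did not pass the test. That list was chosen with earlier results known and holds known NF-κB targets, so these shares are not read as a result. A match is a description of these letters and does not show binding.

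The sites are printed to let the lower genes be compared with members that hold a match and did not pass the test. Each is shown 5′ to 3′ with 10 bases on either side, overlapping matches joined and the matched letters in capitals (GRCh38.p14). Some genes have several annotated starts, and a position counts from the first listed window in which the site lies before the start. Matches that reach past the start count in the shares above but are neither printed nor placed below. FAS was lower and TNFRSF19 was higher.
FAS (chr10:88991264-88991293, + strand): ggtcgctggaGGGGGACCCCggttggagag
TNFRSF19 (chr13:23579179-23579208, + strand): gccgcggagtGGGGGCCTCCaaagaaccca
The ligand genes LTA, LTB and TNFSF13 and the receptor gene TNFRSF14 did not pass the test and lay below the median gene.
LTA (chr6:31572175-31572205, + strand): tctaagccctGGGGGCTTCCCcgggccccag
LTB (chr6:31582492-31582521, - strand): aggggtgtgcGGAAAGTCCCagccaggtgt
TNFSF13 (chr17:7558131-7558160, + strand): tcctcctgcgGGGAAATCCCttcctggctg
TNFRSF14 (chr1:2556275-2556306, + strand): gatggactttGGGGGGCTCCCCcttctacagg
The downstream genes TNFAIP3, TNIP1 and TRAF3 were lower, with log2 fold changes between -3.04 and -1.0. TNFAIP3 holds a further match 55 bases before the start, and the one farther from the start is shown.
TNFAIP3 (chr6:137867182-137867211, + strand): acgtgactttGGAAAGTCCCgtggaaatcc
TNIP1 (chr5:151081057-151081086, - strand): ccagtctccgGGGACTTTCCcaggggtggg
TRAF3 (chr14:102777406-102777435, + strand): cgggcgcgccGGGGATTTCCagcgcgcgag
Among the lower genes the match begins 74 bases before the start in TNFRSF9, 67 in TNFAIP3, 42 in TNIP1, 33 in TRAF3, 157 in FAS and, in sites not printed, 46 in TANK, 58 in ADAM17 and 189 in CYLD. In TNFRSF19, which was higher, it begins 171 bases before the start, and in ADAM10, also higher, 31. Among the members that did not pass the test it begins 86 bases before the start in LTB and TNFRSF14, 104 in LTA and 141 in TNFSF13. It begins 176 bases before the start in TNFSF11 and 192 in TNFSF14, and in TAB2, a downstream gene not called, 102. The positions ran from 33 to 189 bases in the lower genes and from 86 to 192 in the genes not called. These ranges overlapped, and the nearest of all these sites, 31 bases before the start, was in ADAM10, which was higher. All members with a match that were not called lay below the median gene, where 2.5% of genes were called. Their positions therefore cannot be set against the call, and a relation of position to the call was not tested.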

How the data were processed

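RNA of RH30 vector cells (3 arrays) and RH30 SR cells (3 arrays) was measured. The deposited values are log2 intensities from RMA by the authors. The Affymetrix Expression Console is listed beside RMA in the submitters' processing notes, while the study's methods name the Transcriptome Analysis Console. For tool versions and the annotation's build, the sources used here give nothing. Of 70523 features, 23781 had 1 gene symbol. Symbols were brought up to date through RefSeq (GRCh38.p14), and for each of 22411 genes the brightest feature over all arrays was used. The 1543 features with several symbols were not named. No gene was filtered, and the number of arrays limits the precision.

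SR minus vector was fitted over all genes with limma (3.58.1, lmFit and eBayes; R 4.3.3), with Benjamini-Hochberg adjustment over all genes, after the procedure was tested on simulated data. Single members were also tested with an exact permutation test in scipy (1.17.1). The members and the lists of downstream and marker genes were chosen with earlier results of these data known. Named genes are all members, up to 4 called genes of each other list per direction, and NFKBIA. Values on every array were planned for called members and their partners, and those of TNFSF4, TNFSF10, TNFRSF10B and CD40 and the uncalled downstream genes named were chosen after their values were seen. The alternatives were 17 in number, covering normalization, filters, features, fits, the methods' t-test, a replicate block, a fold threshold and each array left out.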

Additional observations from a re-analysis of the deposited data

How the results depend on the processing

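TNFRSF9, TNFRSF19 and NFKBIA kept their direction and their call under all 17 alternatives. EDA2R lost its call with the replicate block and held it in the other 15 alternatives that tested it. With the replicate number as a block, 1327 genes were higher and 1123 lower, 1 member was higher (TNFRSF19) and 2 were lower (TNFRSF9 and TNFRSF1A), and EDA2R, FAS, NGFR and TNFRSF21 had limma adjusted p = 0.052, 0.053, 0.078 and 0.084. With the block 5 downstream genes were higher and 10 lower. RELT, TRAF5, RBCK1, CYLD, MAP3K7 and TAB3 lost their calls there (limma adjusted p between 0.058 and 0.16), and TNFRSF12A gained one (0.032). The deviations from the group means correlated at 0.12, -0.23 and -0.20 between arrays of one number, and at 0.32 between vector replicate 3 and SR replicate 2, so the numbers were not taken to pair the arrays. Requiring a change of at least 1.5-fold, which is stricter by construction, left 820 genes higher and 618 lower, with 2 members higher and 1 lower and 3 downstream genes higher and 6 lower. Without each array in turn, 2 to 4 members and 4 to 6 downstream genes were higher, and 2 to 3 members and 10 to 13 downstream genes were lower, in fits that hold fewer arrays. Among the downstream genes, MAP3K7 also lost its call with centering on array medians (limma adjusted p = 0.073) and without genes identical within a group (0.086), and RBCK1 with the methods' t-test (adjusted p = 0.068). Without dim genes, FAS, EDA2R and the ligands were not tested, and without genes identical within a group TNFRSF21 was not.

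Of the 27 members that did not pass the test, 5 changed sign under an alternative. TNFSF13 turned to 0.0061 with centering on array medians. Without each array in turn, TNF ranged from -0.13 to 0.17, TNFSF8 from -0.052 to 0.035, TNFSF9 from -0.038 to 0.18 and CD27 from -0.0051 to 0.065. A sign was compared only where both values rounded to at least 0.01 in size.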
